A study of Homo sapiens with 4 samples.

Results

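The BCL2 family decides whether a cell opens its outer mitochondrial membrane and dies by apoptosis. Its transcripts were followed in A673, an established human Ewing sarcoma line that carries an EWSR1-FLI1 fusion. The 10 members were chosen by name, as 3 survival genes (BCL2, BCL2L1, MCL1), 5 BH3-only genes (BCL2L11, BMF, BBC3, PMAIP1, BID) and 2 effector genes (BAX, BAK1). Ensembl IDs were matched to symbols for all 10, of 60617 gene rows in the table, and all 10 passed the count filter and were among the 17309 genes tested. CBL0137 libraries came from A673 cells given the compound at 1 µM for 24 h, and DMSO libraries from A673 cells given the solvent for 24 h, with 2 libraries in each condition. CBL0137 belongs to the curaxins, compounds that bind DNA and trap the histone chaperone FACT on chromatin. All libraries come from 1 cell line, and the labels do not say whether each library had its own culture. The p-values therefore cover the spread between these libraries alone, which may be technical.

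Survival members hold the effectors BAX and BAK1 inactive by binding their BH3 segment. BH3-only members are sensors of stress that occupy the groove of the survival proteins, and some also activate the effectors directly. Once active, BAX and BAK1 form pores that release cytochrome c, which starts the caspase cascade. Several members are controlled at the level of transcription, others mainly by protein cleavage or turnover, which RNA-seq does not measure.

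Reads assigned to genes numbered 20483714 to 22817617 in the CBL0137 libraries and 23031963 to 23373554 in the DMSO libraries. Counts of replicate libraries were further apart than sampling noise, as the chi-square divided by its degrees of freedom was 2.57 for CBL0137 and 2.07 for DMSO. All 6 Ewing sarcoma markers were detected, with 1067 to 36378 counts each in every library. Of 5 epithelial markers none exceeded 14 counts, and GRHL2 was at 0 in all libraries. The 6 blood cell markers summed to 41.3 and 39.3 CPM of gene counts (CPM scales counts to the library's total) in CBL0137 replicates 1 and 2, against 31.7 and 31.3 in DMSO replicates 1 and 2. CD3E and HBB were at 0 in every library and PTPRC had at most 1 count, while CD79A and ITGAM made up most of that sum. Of the 3 that passed the count filter, ITGAM rose (log2 fold change of CBL0137 over DMSO 0.72 ± 0.18, edgeR adjusted p = 0.00192). CD79A was slightly higher (0.22 ± 0.07, edgeR adjusted p = 0.0211), and CD14 missed the adjusted p (edgeR 0.107). By the limits used below, DESeq2 called 0 of the 3. The part of those transcripts in the results below was not tested. Throughout, ± is the SE for a log2 fold change and the SD over libraries for a mean level (n = 2 in each condition), and intervals are 95% intervals.

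After 24 h of CBL0137 the 3 of the 10 members that differed most from DMSO were all BH3-only genes, and they lay on both sides of it. Outside the 10, the effector-like family gene BOK rose by more than BMF (log2 fold change 0.84 ± 0.10), as given below. BBC3 fell to 0.476 of its DMSO level and was the only member past both limits used here. The limits were an edgeR p of less than 0.05 after Benjamini-Hochberg adjustment and a change of more than 1.5-fold. BMF stood 1.49-fold higher and PMAIP1 at 0.704 of its DMSO level, both past the adjusted p and short of the fold limit. The survival genes and effectors lay between 0.88 and 1.17 of their DMSO levels. Of the 10 members, 1 fell, 0 rose and 9 were not called. Across all 17309 genes tested, 9.61% were called, 6.88% higher and 2.73% lower in CBL0137. No member was called higher by DESeq2 or limma-voom either, and at an unadjusted edgeR p under 0.05 there were 3 members higher and 3 lower. That unadjusted rule took 44.8% of all genes tested, 22% higher and 22.8% lower in CBL0137.

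At an adjusted p under 0.05 with no fold limit, 3 members were higher (BMF, BCL2L1 and BID) and 3 lower (BBC3, PMAIP1 and BAX). That rule took 36.5% of all genes tested, 17.5% higher and 19% lower in CBL0137. The members' median log2 fold change was -0.01, and that of all genes tested was 0.00. Conditions did not overlap in CPM for 8 of the 10 members, which was also so for 66.9% of all genes tested. The plot of CPM in each library shows these separations gene by gene.

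**Figure D1:**
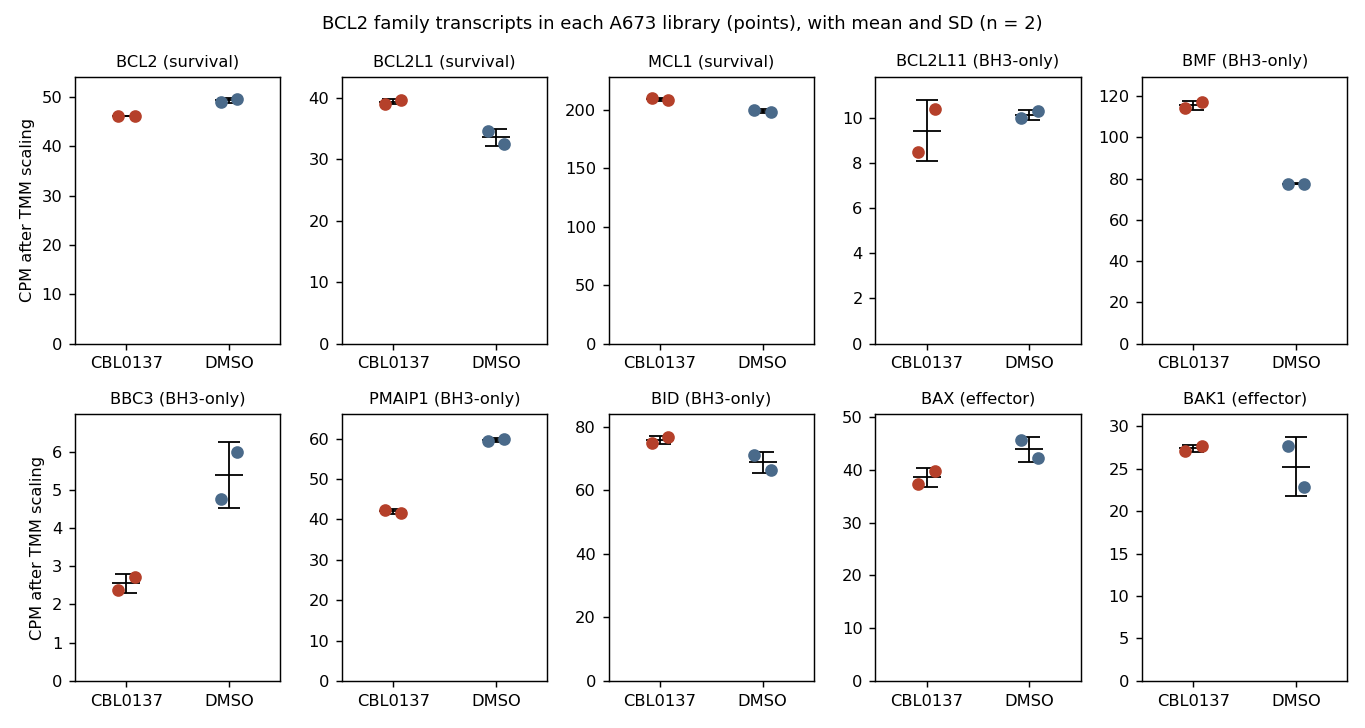
CPM after TMM scaling (y axis, starting at 0 in each panel) of the 10 family members in each library, with CBL0137 at left and DMSO at right. Points are libraries, horizontal bars the mean and whiskers the SD (n = 2). BBC3 and PMAIP1 sit lower and BMF higher in both CBL0137 libraries, whereas the conditions overlap for BCL2L11 and BAK1.

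BBC3 encodes PUMA, a BH3-only protein that binds every survival member. The gene (ENSG00000105327) lies on chromosome 19 from 47724079 to 47736023 in GRCh37, on the minus strand. It measured 2.38 and 2.72 CPM in CBL0137 replicates 1 and 2, against 4.77 and 6 CPM in DMSO replicates 1 and 2 (CPM after TMM scaling, here and below). Both CBL0137 libraries were lower than both DMSO libraries. The means were 2.55 ± 0.24 CPM in CBL0137 and 5.38 ± 0.866 CPM in DMSO (SD, n = 2 each). Its log2 fold change was -1.07 ± 0.20 (SE), with a 95% interval of -1.49 to -0.65 and an edgeR adjusted p of 1.6e-04. Only 0.89% of the genes tested had a lower log2 fold change. BBC3 was also the most thinly read of the members in CBL0137, with 50 and 63 counts there and 109 and 135 in DMSO, so that counting error alone was 14.1% and 12.6% in the CBL0137 libraries. In bulk RNA, fewer cells that express a gene and less of its RNA per cell cannot be told apart.

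The authors' FPKM of BBC3, described by them as scaled by gene length and depth, was 0.918 and 0.6 in CBL0137 replicates 1 and 2, against 1.72 and 1.7 in DMSO replicates 1 and 2. The 2 CBL0137 libraries stood in the opposite order in FPKM and in CPM, yet both were below the DMSO libraries on either scale. The FPKM is not these counts rescaled by a fixed length. Counts and FPKM together imply 2660 and 4598 bases in CBL0137 replicates 1 and 2, and 2718 and 3441 in DMSO replicates 1 and 2. With limma on log2(FPKM + 0.1), the log2 fold change was -1.10 and the adjusted p 0.0576, which missed the limit, and with log2(FPKM + 1) and the same filter it was -0.63 with an adjusted p of 0.0474. On counts the call held in each of the alternatives run, including each replicate left out, with log2 fold changes of -0.99 without CBL0137 replicate 1, -1.18 without CBL0137 replicate 2, -1.23 without DMSO replicate 1 and -0.91 without DMSO replicate 2.

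PMAIP1 encodes NOXA, a BH3-only protein that binds chiefly MCL1 and promotes its degradation. The gene lies on chromosome 18 from 57567228 to 57571537 in GRCh37, plus strand, and shares no exon bases with another annotated gene. It measured 42.4 and 41.6 CPM in CBL0137 replicates 1 and 2, against 59.3 and 60 CPM in DMSO replicates 1 and 2. The spread within each condition was under 1 CPM (SD 0.572 in CBL0137 and 0.555 in DMSO), far below the distance between them. The log2 fold change was -0.51 ± 0.06, with an interval of -0.63 to -0.38 and an edgeR adjusted p of 1.8e-07. Its fold, 0.704 with an interval of 0.647 to 0.766, was inside the fold limit, and it remained so under all 15 alternatives, at log2 values of -0.52 to -0.41.

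BMF encodes a BH3-only protein that is held on the cytoskeleton through dynein light chain DYNLL2 and released under stress. The gene lies on chromosome 15 from 40380091 to 40401093 in GRCh37, minus strand, and 8.5% of its exon bases overlap BMF-AS1, an antisense transcript listed at 0 counts in all libraries. It measured 114 and 117 CPM in CBL0137 replicates 1 and 2, against 77.6 and 77.5 CPM in DMSO replicates 1 and 2. The DMSO libraries were nearly the same as each other and both CBL0137 libraries lay well above them. The log2 fold change was 0.58 ± 0.05, with an interval of 0.48 to 0.68 and an edgeR adjusted p of 4.5e-10. At 1.49-fold, with an interval of 1.39 to 1.6, it lay at the edge of the limit of 1.5. It crossed that limit, and was called, under upper-quartile factors (0.63), library size alone (0.64), a filter of 1 CPM (0.59), log2(FPKM + 0.1) (0.61) and without CBL0137 replicate 1 (0.60). Upper-quartile factors and library size alone also moved the median log2 fold change of all genes tested from 0.00 to 0.05 and 0.06. The intervals of BMF and PMAIP1 lie on opposite sides of 0.

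To show the DNA next to the starts of the 3 members that differed most, the 250 bases upstream of their RefSeq starts are given 5′ to 3′ on the gene's strand, from RefSeq on GRCh38.p14. Entries were found for 9 of the 10 members, not for MCL1. These windows are on another build than the gene positions above. Capitals mark exact matches on either strand to the E-box CACGTG, the AP-1 site written as TGANTCA, the CCAAT box with the letters ATTGG on the other strand, the core of the cAMP response element, which reads TGACG, or the GC box, which reads GGGCGG. The TATA box (TATAAA), the FOXO element (spelled GTAAACA), the ETS repeat (spelled GGAAGGAA) and the E2F site (spelled TTTCCCGC) were searched as well and had no match in these 4 windows. No marked matches overlap.
BBC3, chr19:47232668-47232917, minus strand: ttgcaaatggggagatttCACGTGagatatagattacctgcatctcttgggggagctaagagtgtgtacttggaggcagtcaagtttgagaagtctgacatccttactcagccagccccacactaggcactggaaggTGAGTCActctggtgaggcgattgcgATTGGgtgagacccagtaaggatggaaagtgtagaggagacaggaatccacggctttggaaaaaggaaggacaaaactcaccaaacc
PMAIP1, chr18:59899746-59899995, plus strand: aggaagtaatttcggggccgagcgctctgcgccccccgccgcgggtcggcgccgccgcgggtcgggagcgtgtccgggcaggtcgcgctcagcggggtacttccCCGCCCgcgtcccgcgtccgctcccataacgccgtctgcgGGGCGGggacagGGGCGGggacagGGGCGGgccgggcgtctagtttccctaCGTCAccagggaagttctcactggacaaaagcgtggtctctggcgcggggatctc
BMF upstream start, chr15:40108880-40109129, minus strand: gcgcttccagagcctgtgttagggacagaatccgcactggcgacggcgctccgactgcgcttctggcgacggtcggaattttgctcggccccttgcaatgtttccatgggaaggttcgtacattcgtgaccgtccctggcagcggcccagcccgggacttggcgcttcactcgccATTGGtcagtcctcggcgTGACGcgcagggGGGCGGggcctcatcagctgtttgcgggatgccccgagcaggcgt
BMF downstream start, chr15:40106967-40107216, minus strand: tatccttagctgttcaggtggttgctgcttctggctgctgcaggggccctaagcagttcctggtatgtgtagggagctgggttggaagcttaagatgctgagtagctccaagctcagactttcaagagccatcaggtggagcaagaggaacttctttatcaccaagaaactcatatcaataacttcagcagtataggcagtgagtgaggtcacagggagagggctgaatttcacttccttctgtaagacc

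The windows differ in base composition. BBC3 has 49.2% G and C and 4 CpG, PMAIP1 72.8% and 36 CpG, and the BMF starts 65.2% and 26 CpG upstream and 48.8% and 0 CpG downstream, against medians of 58% and 11 CpG over 35116 RefSeq promoter windows. BBC3 holds 1 E-box, found in 6.34% of those windows, 1 AP-1 match (6.57%) and 1 CCAAT box (32%). PMAIP1 holds 4 GC boxes (a box is found in 42.6% of windows) and 1 TGACG (21.2%), and the upstream BMF start 1 GC box, 1 CCAAT box and 1 TGACG. The downstream BMF start has no match to any of these letters. The windows of the lower PMAIP1 and the higher BMF thus share 2 of the motif types, the GC box and TGACG, and BBC3 shares only the CCAAT box with BMF. Such matches also lie beside members that were not called. The BAX window holds 4 E-boxes, 2 CCAAT boxes, 1 GC box and 1 TGACG, and BID starts 4 and 5, counted from the 5′ end, hold 1 E-box each. No match says only that the letters are absent from these windows, and which start is used in A673 cannot be read from gene counts.

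The other BH3-only members moved little. BID encodes a protein that caspase-8 cleaves to link death receptors to mitochondria. It lies on chromosome 22 from 18216904 to 18257536 in GRCh37, minus strand. It measured 74.9 and 76.7 CPM in CBL0137 replicates 1 and 2, against 71.2 and 66.4 CPM in DMSO replicates 1 and 2, with the CBL0137 libraries above both DMSO libraries. The log2 fold change was 0.14 ± 0.05, with an edgeR adjusted p of 0.0439. On the authors' FPKM the difference was larger, with 23 and 24.2 in CBL0137 and 19.4 and 17.7 in DMSO and a limma log2 fold change of 0.33 on log2(FPKM + 1). The adjusted p missed the limit in 8 of 15 alternatives, among them DESeq2 (0.236), the replicate block (0.0775), no count filter (0.102), without CBL0137 replicate 1 (0.051), without CBL0137 replicate 2 (0.163) and without DMSO replicate 2 (0.453), where the log2 fold change was 0.08.

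BCL2L11 encodes BIM, which binds all survival members and activates the effectors, and is a target of FOXO factors. It lies on chromosome 2 from 111876955 to 111926021 in GRCh37, plus strand. It measured 8.48 and 10.4 CPM in CBL0137 replicates 1 and 2, against 9.98 and 10.3 CPM in DMSO replicates 1 and 2, so the conditions overlapped. CBL0137 over DMSO gave a log2 value of -0.09 ± 0.13, with an interval of -0.36 to 0.18 (edgeR adjusted p = 0.624). The sign turned without CBL0137 replicate 1 (0.04), and the value was -0.26 without CBL0137 replicate 2. A change of up to 1.13-fold upward or to 0.779 of the DMSO level is inside that interval. Of its exon bases, 10.8% are shared with MIR4435-2HG on the opposite strand, which itself had 350 and 489 counts in CBL0137 and 492 and 506 in DMSO, more than the 178 and 242 counts in CBL0137 and the 228 and 231 in DMSO of BCL2L11 itself. No source used here says whether the libraries kept strand, so reads in the shared bases may not be told apart.

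Among survival genes, BCL2L1 was the one past the adjusted p. It encodes BCL-XL, the long-lived survival protein of many solid tumours, and a shorter pro-apoptotic splice form whose reads a gene count does not separate. The gene lies on chromosome 20 from 30252255 to 30311792 in GRCh37, minus strand. It measured 39.1 and 39.7 CPM in CBL0137 replicates 1 and 2, against 34.6 and 32.6 CPM in DMSO replicates 1 and 2, with no overlap. Its log2 fold change was 0.23 ± 0.07, a fold of 1.17 with an interval of 1.06 to 1.29 and an edgeR adjusted p of 0.00925. That p missed the limit with DESeq2 (0.117), without DMSO replicate 2 (0.137) and with limma on the 3 FPKM settings (0.0819 to 0.164). Of its 4197 exon bases, 41.3% are shared with the antisense transcript ABALON, which had 17 and 13 counts in CBL0137 and 13 and 17 in DMSO, so the count of BCL2L1 may leave out reads from a large part of the gene.

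MCL1, a short-lived survival protein that depends on steady transcription and translation, had the highest mean FPKM of the members in both conditions, with BAX overlapping it in DMSO. Its gene lies on chromosome 1 from 150533371 to 150552214 in GRCh37, minus strand, and shares 5.3% of its exon bases with ADAMTSL4 and ADAMTSL4-AS1. It measured 210 and 208 CPM in CBL0137 replicates 1 and 2, against 200 and 198 CPM in DMSO replicates 1 and 2. The conditions did not overlap, but the log2 fold change was 0.07 ± 0.04, with an interval of -0.01 to 0.15 and an edgeR adjusted p of 0.148. It passed the adjusted p under upper-quartile factors (0.12, edgeR adjusted p = 0.0128) and library size alone (0.13, edgeR adjusted p = 0.00533). Those scalings also moved the median log2 fold change of all genes tested from 0.00 to 0.05 and 0.06, so the higher values of MCL1 there are not particular to it. A rise above 1.11-fold or a fall below 0.995 of the DMSO level lies outside the interval.

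BCL2, the founding survival gene, spans chromosome 18 from 60790579 to 60987361 in GRCh37, minus strand. It measured 46.1 and 46.2 CPM in CBL0137 replicates 1 and 2, against 49 and 49.7 CPM in DMSO replicates 1 and 2. The CBL0137 libraries were slightly below both DMSO libraries. Its log2 fold change was -0.09 ± 0.06, with an interval of -0.22 to 0.03 and an edgeR adjusted p of 0.232. In the authors' FPKM its conditions overlapped, at 4.4 and 4.41 in CBL0137 and 4.47 and 4.4 in DMSO.

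The pore-forming effectors differed little between conditions. In GRCh37, BAX lies on chromosome 19 from 49458072 to 49465055, plus strand, and BAK1 on chromosome 6 from 33540324 to 33548070, minus strand. BAX measured 37.3 and 39.9 CPM in CBL0137 replicates 1 and 2, against 45.6 and 42.2 CPM in DMSO replicates 1 and 2, with both CBL0137 libraries lower. Its log2 fold change was -0.18 ± 0.07, with an interval of -0.32 to -0.05 and an edgeR adjusted p of 0.0335. That p missed the limit in 9 of 15 alternatives, among them upper-quartile factors (0.111), library size alone (0.156), DESeq2 (0.184), the replicate block (0.0598), without CBL0137 replicate 1 (0.182) and without DMSO replicate 1 (0.283). In FPKM its conditions overlapped, at 28.7 and 32.3 in CBL0137 and 32.9 and 31.7 in DMSO. BAK1 measured 27.1 and 27.7 CPM in CBL0137 replicates 1 and 2, against 27.7 and 22.8 CPM in DMSO replicates 1 and 2, so the conditions overlapped. Its log2 fold change was 0.12 ± 0.09 (interval -0.06 to 0.30, edgeR adjusted p = 0.304), and it was -0.02 without DMSO replicate 2 and 0.26 without DMSO replicate 1.

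**Figure D2:**
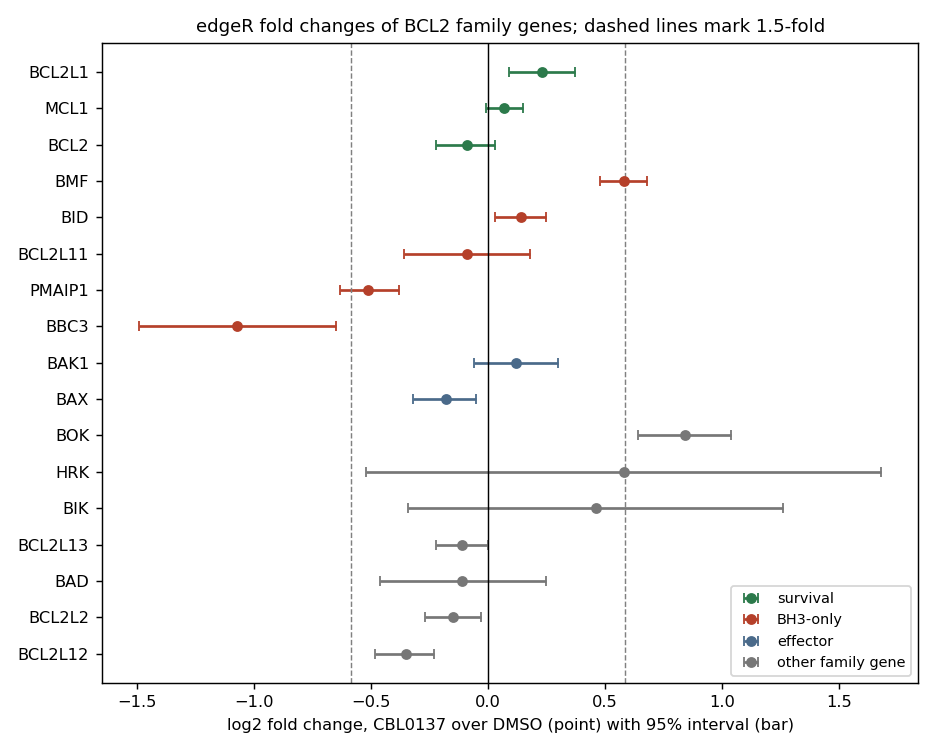
Log2 fold change of CBL0137 over DMSO (x axis) for the 10 members and the 7 other family genes that passed the count filter, each with its 95% interval from edgeR. Dashed lines mark a fold change of 1.5 in either direction. BBC3 lies wholly below and BOK wholly above those lines. BMF and PMAIP1 have intervals that reach across a line, as do the wider ones of BIK (-0.34 to 1.26) and HRK (-0.52 to 1.68).

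Levels of different genes were compared in the authors' FPKM, which is described as scaled by length. In CBL0137 the order of mean FPKM was MCL1 (36.5), BAX (30.5), BID (23.6), BMF (20.2), BCL2L1 (19.5), PMAIP1 (14.7), BAK1 (10.8), BCL2 (4.41), BCL2L11 (1.65) and BBC3 (0.759), and the libraries of each neighbouring pair did not overlap. In DMSO it was MCL1 (33), BAX (32.3), PMAIP1 (19.9), BID (18.5), BCL2L1 (16.6), BMF (13.3), BAK1 (9.69), BCL2 (4.44), BBC3 (1.71) and BCL2L11 (1.68). There the libraries of MCL1 and BAX overlapped, and so did those of BBC3 and BCL2L11. BMF stood above PMAIP1 in CBL0137 and below it in DMSO, with a ratio of BMF to PMAIP1 FPKM of 1.39 and 1.37 in CBL0137 replicates 1 and 2 and of 0.66 and 0.673 in DMSO replicates 1 and 2. The order in DMSO rests on the scaling of the FPKM. In CPM, which is not scaled by length, BMF was above PMAIP1 in DMSO too, at 77.6 and 77.5 against 59.3 and 60 in replicates 1 and 2.

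Summed by role, the members differed less between conditions than BMF, PMAIP1 or BBC3 did alone. BH3-only members held 37.7% and 37.2% of the summed FPKM of the 10 members in CBL0137 replicates 1 and 2, and 36.3% and 36.6% in DMSO replicates 1 and 2. Survival members held 37.8% and 36.4% in CBL0137 and 35.6% and 35.9% in DMSO, and effectors 24.5% and 26.4% in CBL0137 and 28.1% and 27.5% in DMSO. PMAIP1 relative to MCL1, its main binding partner, stood at a ratio of FPKM of 0.403 and 0.402 in CBL0137 against 0.597 and 0.61 in DMSO. BMF relative to MCL1 stood at 0.559 and 0.551 in CBL0137 against 0.394 and 0.41 in DMSO. These ratios describe transcripts and were not tested.

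**Figure D3:**
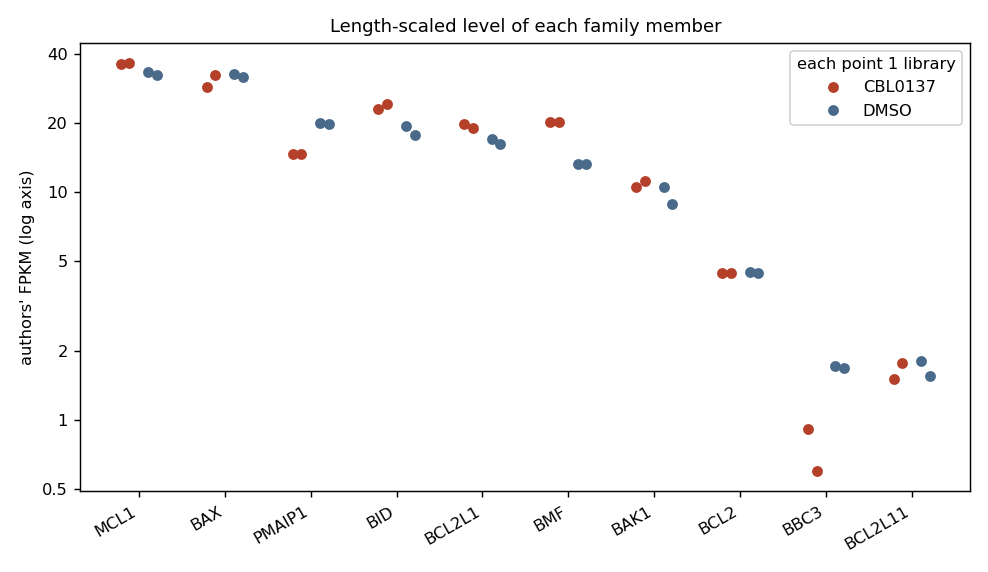
The authors' FPKM of each member (log axis) in each library, ordered by mean level in DMSO, with CBL0137 left of DMSO for each gene. PMAIP1 lies above BMF in the DMSO libraries and below it in the CBL0137 libraries, and BBC3 is the lowest member in CBL0137 but beside BCL2L11 in DMSO.

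Outside the 10 members, BOK was the family gene that rose. BOK is an effector-like member that can permeabilise mitochondria independently of the survival proteins. It measured 22.2 and 24 CPM in CBL0137 replicates 1 and 2, against 13.2 and 12.7 CPM in DMSO replicates 1 and 2. The log2 fold change was 0.84 ± 0.10, with an interval of 0.64 to 1.04 and an edgeR adjusted p of 1.3e-07, and it kept its call in 14 of 15 alternatives. Of its exon bases, 7.5% are shared with BOK-AS1.

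Of 11 other family genes, 7 passed the count filter. Of these, 1 rose (6.88% of all genes tested rose), 0 fell (2.73%) and 6 were not called. DESeq2 and limma-voom also called 0 of them lower, and 3 were lower at an unadjusted edgeR p under 0.05 (22.8% of all genes tested). BCL2L12 was at 0.783 of its DMSO level, or -0.35 ± 0.06 on the log2 scale (edgeR adjusted p = 4.0e-05), inside the fold limit, and shares 25.9% of its exon bases with IRF3. BCL2L2, which encodes the survival protein BCL-W, measured -0.15 ± 0.06 on that scale (edgeR adjusted p = 0.0527), and BCL2L13 -0.11 ± 0.05. The BH3-only genes BAD (-0.11 ± 0.17), BIK (0.46 ± 0.39) and HRK (0.58 ± 0.53) were read too thinly for a small change to be seen, with at most 129, 35 and 20 counts in a library. BAD had 122 and 105 counts in CBL0137 and 129 and 123 in DMSO, while the authors' FPKM was 34 and 31.1 in CBL0137 and 31.7 and 31.8 in DMSO. Its gene count and FPKM thus rank it very differently, 23.7% of its exon bases are shared with GPR137, and the cause was not tested. BCL2A1 had 0 and 0 counts in CBL0137 and 1 and 0 in DMSO, BCL2L10 6 and 19 in CBL0137 and 2 and 10 in DMSO, BCL2L14 2 and 2 in CBL0137 and 14 and 10 in DMSO, and BCL2L15 2 and 8 in CBL0137 and 6 and 8 in DMSO, all below the count filter.

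Steps after the mitochondrial pore did not show a change called by edgeR or DESeq2. Of 13 such genes, 0 rose, 0 fell and 13 were not called, while edgeR called 9.61% of all genes tested. At an unadjusted edgeR p under 0.05 there were 6 (44.8% of all genes tested). DESeq2 called 0, and limma-voom called 1, which was lower. The median log2 fold change of the 13 was -0.06. By the edgeR adjusted p alone, 0 were higher and 4 lower (17.5% and 19% of all genes tested). CYCS, which encodes the cytochrome c that the pore releases, had 234 ± 3.51 CPM in CBL0137 and 303 ± 6.04 CPM in DMSO (-0.37 ± 0.04), and BIRC5, a mitosis-linked inhibitor of apoptosis, 164 ± 14.7 CPM in CBL0137 and 244 ± 6.64 CPM in DMSO (-0.57 ± 0.05). APAF1, the scaffold of the apoptosome, stood at -0.20 ± 0.06 on the log2 scale. Its FPKM overlapped, at 7.08 and 6.36 in CBL0137 and 6.95 and 7.64 in DMSO. The nuclease gene ENDOG stood at -0.53 ± 0.18 on that scale. It measured 8.62 and 4.75 CPM in CBL0137 replicates 1 and 2, against 8.93 and 10.2 CPM in DMSO replicates 1 and 2. The drop thus lay mainly in CBL0137 replicate 2, and 40.1% of the exon bases of ENDOG are shared with other genes.

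Partners and turnover enzymes of the family were not called, though several passed the adjusted p inside the fold limit. Of 10 genes, 0 rose and 0 fell by edgeR, DESeq2 and limma-voom, while edgeR called 9.61% of all genes tested. By the edgeR adjusted p alone, 2 were higher and 4 lower (17.5% and 19% of all genes tested). At an unadjusted edgeR p under 0.05 there were 7 (44.8% of all genes tested), and the median log2 fold change of the 10 was -0.06. USP13, a deubiquitinase reported to stabilise MCL1, measured -0.30 ± 0.05, GSK3B, a kinase that marks MCL1 for degradation, -0.29 ± 0.05, DYNLL2, the BMF-binding dynein light chain, -0.22 ± 0.06, and the mitochondrial ubiquitin ligase gene MARCHF5 0.24 ± 0.05. DYNLL2 was lower and BMF higher in CBL0137, and the protein levels were not measured here.

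Transcription factors known to act on family genes also went both ways. Of 11, ATF4 fell (2.73% of all genes tested fell), 0 rose (6.88%) and 10 were not called. DESeq2 and limma-voom called 0 higher as well, with 3 higher and 5 lower at an unadjusted edgeR p under 0.05 (22% and 22.8% of all genes tested). ATF4, which drives PMAIP1 in the integrated stress response of other cells, measured 227 ± 1.23 CPM in CBL0137 and 360 ± 6.06 CPM in DMSO (-0.66 ± 0.04, edgeR adjusted p = 2.4e-13). FOXO3, a known activator of BCL2L11 and BBC3, measured -0.28 ± 0.07, MYC -0.19 ± 0.04, STAT3, a known activator of MCL1 and BCL2L1, 0.22 ± 0.04, and JUN 0.23 ± 0.06. DDIT3, which the rule for named genes given below does not take, had the highest log2 fold change of the list (0.39 ± 0.12, edgeR adjusted p = 0.00957). It shares 39.6% of its exon bases with other genes. In the authors' FPKM, the conditions of STAT3 overlapped with the lower mean in CBL0137, at 16.5 and 18 in CBL0137 and 15.8 and 21 in DMSO, and those of MYC overlapped as well, at 61.6 and 68.7 in CBL0137 and 70 and 68.5 in DMSO. Whether any of these factors set the level of a family gene was not tested.

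In the death receptor arm, which reaches the family through cleavage of BID, 9 of 10 genes passed the count filter. None was called higher or lower by edgeR, DESeq2 or limma-voom, while edgeR called 9.61% of all genes tested. In this arm 5 were higher and 0 lower at an unadjusted edgeR p under 0.05 (22% and 22.8% of all genes tested), and the median log2 fold change was 0.15. CFLAR, the inhibitor of caspase-8 activation, measured 87.1 ± 2.33 CPM in CBL0137 and 68.7 ± 1.62 CPM in DMSO (0.34 ± 0.05, edgeR adjusted p = 7.4e-06). In the authors' FPKM its conditions overlapped, at 8 and 12.8 in CBL0137 and 9.84 and 9.18 in DMSO. RIPK1 (0.34 ± 0.08), TNFRSF1A (0.22 ± 0.05) and TNFRSF10B (0.18 ± 0.04), which encode a kinase adaptor and death receptors, were also higher at an adjusted p under 0.05 and inside the fold limit. The FPKM of TNFRSF10B overlapped too, at 61 and 81.1 in CBL0137 and 69.7 and 49.7 in DMSO.

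**Figure D4:**
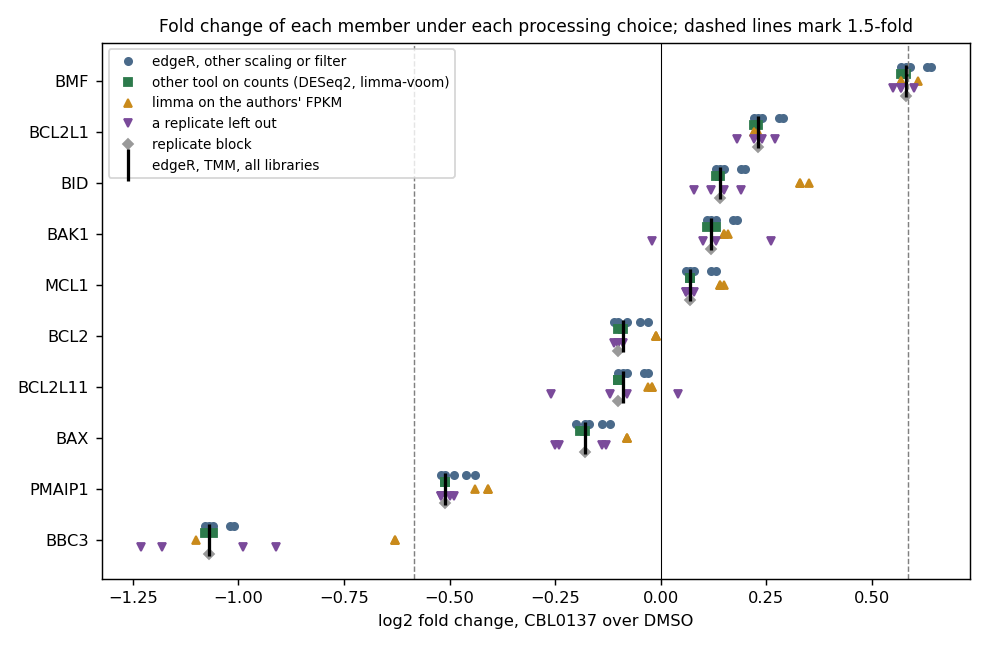
Log2 fold change of CBL0137 over DMSO (x axis) of each member under every processing choice that was run, with the edgeR value on all libraries as a black bar and dashed lines at a fold change of 1.5. Points of BBC3 spread from -1.23 to -0.63, those of BMF from 0.55 to 0.64 and those of PMAIP1 from -0.52 to -0.41, and only BCL2L11 and BAK1 have a point on the other side of 0.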

How the data were processed

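RNA-seq was made from 4 A673 samples, 2 given CBL0137 and 2 given DMSO. Per the series' design text and the submitters' processing notes, adapters were removed with Trim Galore, HISAT2 aligned the reads to hg19, and HTSeq 0.11.1 produced the whole-number gene counts that the authors deposited. DESeq2 1.26.0 and the mm10 build are named there too. The authors also deposited FPKM per gene, which per the design text allows for gene length and depth. No source used here names the FPKM tool, and 4663 genes with a count of 0 in all libraries have an FPKM above 0. The annotation release and strand setting of the counts are not named either.

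Of 60623 rows, 60617 name a gene, and the other 6 stayed out of library sizes and tests. The HTSeq summary rows held 23.7% and 24.8% of reads in CBL0137 replicates 1 and 2, and 23.9% and 24.1% in DMSO replicates 1 and 2. IDs were matched to GENCODE release 44 lifted to GRCh37, which named 58524 and left 2093 unnamed. Exon bases shared between genes were counted on that annotation.

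Counts were tested with edgeR 4.0.16 in R 4.3.3 (TMM, filterByExpr at a minimum count of 10, quasi-likelihood test), CBL0137 against DMSO with no further term, with Benjamini-Hochberg adjustment over all genes tested. A call needed an adjusted p of less than 0.05 and a change of more than 1.5-fold, the limits of the series' own description. The standard error is the log2 fold change divided by the square root of F, and the 95% interval uses its t quantile. The fit was tested on simulated data with 200 changed genes. Replicates of 2 per condition give wide intervals for genes with few counts, and counting intervals cover counting error only. Groups came from the sample titles.

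Alternatives in scaling were upper-quartile or RLE factors and plain library size. Alternatives in filtering were none, and 1 CPM or more in at least 2 libraries. Other tools were limma-voom (limma 3.58.1), DESeq2 1.42.0, and limma on log2(FPKM + 0.1) or log2(FPKM + 1), with the filter that 2 libraries reach an FPKM of 1, and the last also unfiltered. The remaining alternatives were each replicate left out and the replicate number as a block. A fold change on log2(FPKM + 1) understates that of a low gene. Where 1 replicate was left out, the single library of that condition is assumed to vary as much as the other condition's. The same alternatives were run for called genes of the other lists after the data were seen.

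The members and gene lists were chosen with earlier results of these data known. The rule for named genes took all members, all other family genes, and of each further list the called genes and up to 4 more with the smallest adjusted p. No test was run over a list. Not all genes that the rule takes, and not all lists, are reported here. Python 3.11.15, pandas 2.3.3 and matplotlib 3.10.9 were used.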

Additional observations from a re-analysis of the deposited data

How the results depend on the processing

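With each scaling, filter, tool or left-out replicate on counts, BBC3 fell past both limits. Its call was lost with limma on log2(FPKM + 0.1) (-1.10, adjusted p = 0.0576) and on log2(FPKM + 1) with no filter (-0.63, adjusted p = 0.197). The number of members called was 2 with a filter of 1 CPM, with plain library size and with upper-quartile factors, where BMF joined BBC3, and 0 on log2(FPKM + 1) with no filter. That last setting called 0 genes, 0 higher and 0 lower, with limma, and 6361 genes and 6 members had an unadjusted p under 0.05. At an adjusted p alone it held 0 members higher and 0 lower, log2(FPKM + 0.1) held 1 higher and 1 lower, and DESeq2 held 1 higher. DESeq2 called 919 genes, 593 of them higher, and 909 were among the 1663 of edgeR. With limma, log2(FPKM + 1) with the filter called 577 genes (388 higher, 189 lower) and log2(FPKM + 0.1) 726 (489 higher, 237 lower). The cause of these differences was not tested. With each replicate left out in turn, the call counts ran from 1343 to 1591 genes, 921 to 1052 higher and 422 to 539 lower, with 1 to 2 members called, 1 to 3 members higher and 2 to 3 lower at an adjusted p under 0.05. The log2 fold change turned sign for BCL2L11 without CBL0137 replicate 1 (0.04, lowest -0.26) and for BAK1 without DMSO replicate 2 (-0.02, highest 0.26). With the replicate block, 1576 genes and 1 member were called, and BID and BAX no longer passed the adjusted p. Same-numbered libraries did not deviate together (correlation of deviations -0.000133 over 17309 genes). With 2 libraries in each condition, this cannot settle whether same-numbered libraries shared a culture or batch, and the labels do not say. BOK and ATF4, whose alternatives were added after the data were seen, lost their calls on unfiltered log2(FPKM + 1). Scaling moved the median log2 fold change of all genes by at most 0.06. Depth limits BBC3 most among the members, with 50 counts in its lowest library.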
